A study of Homo sapiens with 6 samples.

Results

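COMPASS core subunits, together with HCFC1 and OGT, were followed as 8 genes of a pooled short hairpin RNA (shRNA) screen in SKK-1 cells, a line derived from acute myeloid leukaemia secondary to a myelodysplastic syndrome. The genes were ASH2L, RBBP5, WDR5, DPY30, CXXC1, WDR82, HCFC1 and OGT. They account for 64 of the 7293 hairpins counted and for 8 of the 912 targeted genes, and each was targeted by 8 hairpins. They were selected on their place in these complexes and on the differences between azacitidine (AZA) and untreated libraries in these same samples, so every such difference given here is a description of the values that chose the genes. All samples carried the lentiviral hairpin pool and had been selected with puromycin. After selection each of 3 transduced cultures was divided. One part of each received no drug and gave the untreated libraries, and the other part received 0.25 µM AZA every 2 days and gave the AZA libraries. Cells of both groups were collected 14 days after the treatment began and the hairpins were counted in genomic DNA, so there were 3 untreated and 3 AZA libraries with shared replicate numbers. The screen addressed which chromatin regulators alter survival under AZA, a nucleoside drug that enters both RNA and DNA and traps DNA methyltransferases.

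COMPASS complexes methylate lysine 4 of histone H3 at promoters and enhancers. WDR5, RBBP5, ASH2L and DPY30 form the core that every MLL and SET1 methyltransferase needs for full activity, whereas CXXC1 and WDR82 belong to the SET1 forms only. HCFC1 is a chromatin scaffold bound by MLL and SET1 complexes, and it is cleaved and glycosylated by OGT, the enzyme that attaches N-acetylglucosamine to serine and threonine residues. Several of these genes are required by proliferating cells in general. A hairpin that is scarce in every library may therefore mark cells lost before harvest or a hairpin that was scarce in the pool, and without a library from the start of the experiment these cannot be told apart. Neither the knockdown reached by a hairpin nor the identity of the cells can be read from hairpin counts.

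The guide strands of DPY30 and CXXC1 are printed because the position of their target sites differs within each gene and is used below. Capitals mark the seed, bases 2 to 8 of the guide, which pairs with the target first. The first are the 8 guides against DPY30, whose sites were located on GRCh38 with GENCODE annotation.
DPY30.288: tATTCTCTcaacgttgtctgtg
DPY30.294: tTCTACTAttctctcaacgttg
DPY30.299: tCATTTTCtactattctctcaa
DPY30.317: tTTTCTGCattaatcttctcat
DPY30.396: tAATAAGAtaggcacaactgtc
DPY30.551: tTAATCATgtaaatctacagta
DPY30.598: tTATACATccaaaaagagggaa
DPY30.770: tTGACAGTttattttgaaggtc
DPY30 lies on the minus strand of chromosome 2. The sites of DPY30.288, DPY30.294 and DPY30.299 cross the junction of exons 3 and 4 in the coding sequence and overlap each other (for DPY30.288, chr2:32029731-32039294 with the intron included). DPY30.317 (chr2:32029702-32029723) and DPY30.396 (chr2:32029623-32029644) target coding sequence of exon 4, and both guides also match a transcript of 1 other annotated gene in full. DPY30.551 (chr2:32024131-32024152), DPY30.598 (chr2:32024084-32024105) and DPY30.770 (chr2:32023912-32023933) target the 3′ UTR in exon 5. These 3 sites occurred in 2, 1 and 1 annotated DPY30 transcripts, and each of the 5 coding sites in 6. All 8 sites were in the canonical transcript. The number in each identifier exceeded the position in the annotated transcript by the same amount for all 8 guides, so differences between these numbers are distances in bases.

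The second set holds the 8 guides against CXXC1.
CXXC1.160: tTCACAGGtaaagtgaccgctt
CXXC1.197: tTGATTCCgtacattgcccgtt
CXXC1.396: tTGTCAGTagagtccgtacggc
CXXC1.1731: tTCTCAGActtcttctcccgac
CXXC1.1782: tTGTGCTTctgcttctgccgat
CXXC1.2319: tACACATCacagaagagtcgtg
CXXC1.2346: tTACAGTAtgttttgctctgag
CXXC1.2919: tTTATTAAcaaaacccagggag
CXXC1 lies on the minus strand of chromosome 18, at chr18:50282343-50287839. Only 5 of the 8 guides had a site in an annotated CXXC1 transcript. CXXC1.1731 (chr18:50284736-50284757, exon 8), CXXC1.1782 (chr18:50284519-50284540, exon 9), CXXC1.2319 (chr18:50283335-50283356) and CXXC1.2346 (chr18:50283308-50283329, both exon 13) target coding sequence, and CXXC1.2919 (chr18:50282363-50282384) targets the 3′ UTR in exon 15. The other 3 guides matched the genome once each, on the gene's strand but before its annotated start. CXXC1.160 lay 306 bases before it (chr18:50288145-50288166), CXXC1.197 lay 269 bases before it (chr18:50288108-50288129) and CXXC1.396 lay 70 bases before it (chr18:50287909-50287930). They also lay outside the RefSeq gene, with CXXC1.396 the nearest at 217 bases before its start. On the genome these 3 sites are as far apart as the numbers in their identifiers. For guides with a site, position in the annotated transcript minus identifier number was -633 for CXXC1.1731 and -636 for the others. Whether an earlier or longer CXXC1 transcript holds the 3 sites was not tested, so they are not taken as hairpins without a target. No 2 of the 16 guides shared a seed.

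The 6 libraries held 12292575 to 22587662 counts. Levels are given as CPM, the counts of a hairpin scaled to a library total of 1000000, and values of a group are listed in the order of replicates 1, 2 and 3. Untreated libraries varied more among themselves than AZA libraries. The median SD of log2(CPM + 0.5) over a group's 3 libraries was 0.93 in untreated and 0.56 in AZA libraries for all hairpins, and 1.18 and 0.59 for the 64 hairpins. Counts are PCR reads without molecular identifiers, so floors cover counting error only. All 64 hairpins passed the count filter and entered the fit. P-values measure the spread between cultures of a single cell line.

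The hairpins against these genes took a larger share of the AZA libraries than of the untreated ones. Together they made up 0.689%, 0.632% and 0.708% of counts in the untreated libraries and 0.960%, 0.911% and 0.919% in the AZA libraries. The groups did not overlap. The fitted log2 fold change, AZA over untreated, was positive for 44 of the 64 hairpins and for 45.1% of all 7262 hairpins tested. Its median was 0.31 for the 64 hairpins and -0.096 for all hairpins tested. With the replicate number as a block, 49 of the 64 hairpins and 3914 of the 7262 were positive, and these medians were 0.64 and 0.080.

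The differences of single hairpins ran in both directions. Of the 64 hairpins, 14 were above 1 on the log2 scale (11% of all hairpins tested) and 6 were below -1 (9.31%). All AZA libraries lay above all untreated libraries for 15 hairpins (9.13% of all hairpins) and below them for 4 (4.29%). By edgeR's quasi-likelihood test with Benjamini-Hochberg adjustment none of the 64 hairpins passed 0.05, where 0.0689% of all hairpins did, and the lowest adjusted p was 0.643, for ASH2L.389. At an unadjusted p under 0.05, 7 of them were higher (1.9% of all hairpins) and 4 were lower (3.72%). The fit with the replicate block also called none (0.0551% of all hairpins), nor did edgeR's exact test (0.179%). DESeq2's Wald test called 4 of the 64 (1.88% of the 7170 hairpins with an adjusted p). These were ASH2L.389, DPY30.551 and DPY30.598, higher with AZA, and WDR82.3292, lower with AZA. Because these genes were chosen on this contrast, nothing about them is read from the shares.

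At the level of genes, 7 of the 8 had a positive mean log2 fold change over their hairpins, compared with 44.6% of the 912 genes. With the replicate block 7 of the 8 were again positive, but so were 67.7% of all genes. The order was WDR5 (1.19), DPY30 (1.02), OGT (0.81), ASH2L (0.51), HCFC1 (0.48), CXXC1 (0.38), RBBP5 (0.065) and WDR82 (-0.88). The SD over the 8 hairpins of a gene was 0.46 to 1.62, and neighbours from WDR5 down to RBBP5 differed by less than the SD of their hairpins. RBBP5 and WDR82 lay further apart than the SD of either gene. None of the genes had 8 of 8 hairpins higher, which 0.877% of all genes had. For the summed CPM of a gene's hairpins, all AZA libraries lay above all untreated libraries for DPY30, ASH2L and OGT (3 of 8 genes, against 10.9% of all genes). WDR82 was the only one of the 8 genes whose AZA libraries all lay below the untreated ones (7.68% of all genes).

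**Figure D1:**
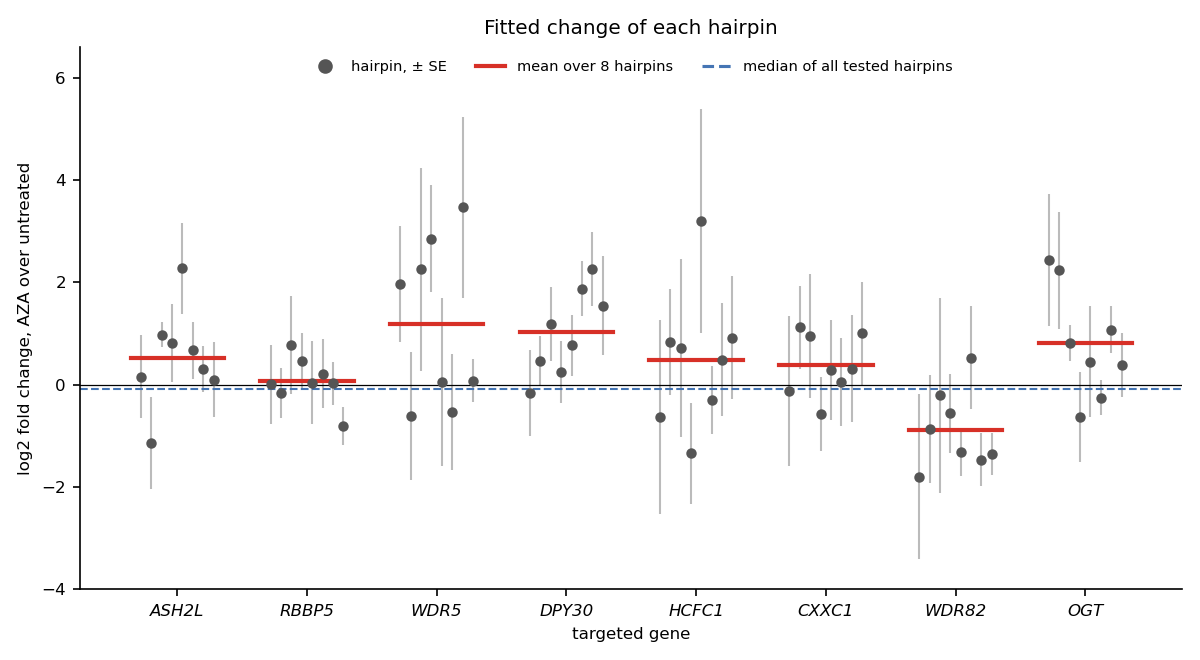
Fitted log2 fold change of each hairpin (AZA over untreated; points with bars of 1 SE) for the 8 genes, the mean of each gene's 8 hairpins (red lines) and the median of all tested hairpins (dashed line at -0.096). The gene means run from -0.88 for WDR82 to 1.19 for WDR5, and single hairpins of a gene scatter widely around them.

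DPY30 is the small dimeric core subunit that docks onto ASH2L. Its hairpins were higher with AZA on average. The difference of their mean log2 CPM had an SD of 0.38 over the replicate pairs, the smallest of the core subunits. The same was not seen for summed CPM. Its ratios in pairs 1, 2 and 3 were 1.60, 2.43 and 2.97 for DPY30 and 2.18, 1.87 and 1.32 for ASH2L. The summed level of the 8 DPY30 hairpins was 1092, 635 and 655 CPM in the untreated libraries and 1748, 1540.4 and 1944 CPM in the AZA libraries. All AZA libraries lay above all untreated ones, and the ratio of the group means was 2.20. DPY30 was at the 28.7th percentile of the 912 genes in the untreated group and at the 94.5th in the AZA group.

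The 3 hairpins against the DPY30 3′ UTR had the highest fold changes of the 8. DPY30.551 was at 64.8, 35.9 and 118 CPM in the untreated libraries and at 279.6, 272 and 341 CPM in the AZA libraries. DPY30.598 was at 10.6, 53.1 and 70.4 CPM without and at 287, 223 and 213 CPM with AZA. In both, the lowest AZA library was more than 2-fold above the highest untreated library. Their fitted log2 fold changes were 1.87 ± 0.54 and 2.26 ± 0.72 (SE), with adjusted p of 0.643 and 0.694 by edgeR's quasi-likelihood test and of 0.0141 and 0.0293 by DESeq2. DPY30.770 was at 220.2, 6.65 and 19.8 CPM without and at 208, 318 and 263 CPM with AZA. Here the untreated libraries differed 33.1-fold among themselves and replicate 1 was as high as the AZA libraries.

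The 5 hairpins against the DPY30 coding sequence varied around smaller differences. DPY30.288 was at 86.7, 223 and 37.6 CPM in the untreated libraries and at 134, 28.8 and 188 CPM in the AZA libraries, with a fitted value of -0.17, the only negative one of the gene. DPY30.294 was at 238, 78.0 and 179 CPM without and at 211, 247 and 301 CPM with AZA. DPY30.299 was at 169, 74.3 and 21.8 CPM without and at 315, 114 and 241 CPM with AZA. The groups overlapped for all 3 of these hairpins, which target overlapping sites across the exon junction. DPY30.317 was at 247, 48.0 and 119 CPM without and at 188, 158 and 199 CPM with AZA. DPY30.396 was at 56.4, 116 and 90.2 CPM without and at 126, 179.6 and 198 CPM with AZA, and was the only hairpin of the 5 whose groups did not overlap. The mean log2 fold change was 0.50 over these 5 hairpins (SD 0.51) and 1.89 over the 3 hairpins of the 3′ UTR (SD 0.36). The 3′ UTR sites also occurred in fewer annotated transcripts than the coding sites. The kind of site was compared after the values had been seen and the difference was not tested.

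As in the library as a whole, the DPY30 hairpins were more alike between AZA libraries than between untreated ones. The median SD of log2(CPM + 0.5) over replicates was 1.23 in the untreated and 0.28 in the AZA group. For all hairpins it was 0.93 and 0.56, and of the 8 genes only WDR82 lacked this difference. The mean of DPY30 was 1.02 on the log2 scale, with 0.90 to 1.46 when any single library was left out, the highest without untreated replicate 1.

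ASH2L, on chromosome 8, encodes the core subunit that joins DPY30 to the methyltransferase. Its hairpins summed to 1138, 977 and 1641 CPM in the untreated and to 2478, 1828 and 2168 CPM in the AZA libraries, again without overlap. A single hairpin contributed much of this. ASH2L.389 was at 428, 354 and 477 CPM without and at 936, 972 and 852 CPM with AZA, and made up 37.8%, 53.2% and 39.3% of the gene's counts in the AZA libraries. Its log2 fold change of 0.97 ± 0.25 (SE) had the lowest p of the 64 hairpins, with an adjusted p of 0.643 by edgeR's quasi-likelihood test and of 0.00322 by DESeq2.

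The other ASH2L hairpins included the extremes of the gene. ASH2L.1887 had the highest log2 fold change, 2.27 ± 0.90, from 17.2, 15.5 and 31.2 CPM without to 149, 56.8 and 139 CPM with AZA. The groups did not overlap. The lowest was ASH2L.373, at 94.4, 109.9 and 161 CPM without and at 115, 7.14 and 63.4 CPM with AZA, with a value of -1.15 ± 0.91, which was -1.96 to -0.63 when any single library was left out. By the numbers in their identifiers the sites of ASH2L.373 and ASH2L.389 start 16 bases apart, and 1 of this pair was lower and the other higher. The remaining 5 hairpins lay between 0.091 and 0.81 and their groups overlapped. The gene mean of 0.51 was between 0.27 and 0.89 when any single library was left out.

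WDR5 (chr9:134135365-134159968) encodes the core subunit that reads and presents the histone H3 tail and also binds other chromatin complexes. It had the highest mean of the 8 genes and the widest scatter, both between hairpins (SD 1.62) and between untreated libraries (median SD of log2(CPM + 0.5) 1.99, against 0.72 with AZA). Its hairpins summed to 429, 296 and 597 CPM in the untreated and to 571, 696 and 824 CPM in the AZA libraries, and the groups overlapped. WDR5.2982, its most abundant hairpin, held 44.8% to 47.5% of the untreated sum.

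Most of the difference of WDR5 came from hairpins that were scarce in the untreated libraries. WDR5.2751 had the highest value of the gene, with 8.95, 0 and 6.77 CPM without and 43.9, 45.8 and 102 CPM with AZA. A count of 0 in untreated replicate 2 allows a level of up to 0.166 CPM. Its fitted log2 fold change was 3.46 ± 1.77. WDR5.242, WDR5.983 and WDR5.1289 likewise had all AZA libraries above all untreated ones, with log2 fold changes of 1.97 to 2.86. The lowest was WDR5.931, at 92.7, 7.60 and 85.8 CPM without and at 23.5, 6.35 and 105 CPM with AZA, with a value of -0.61 ± 1.25. Its groups overlapped. The remaining 3 hairpins lay between -0.54 and 0.078. WDR5.1559 and WDR5.1605 differed 618-fold and 93.8-fold between untreated libraries, whereas the group means of a WDR5 hairpin differed 12.2-fold at most. The 618-fold rests on 2 counts of WDR5.1559 in untreated replicate 2. The gene mean was 0.84 to 1.41 when any single library was left out.

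RBBP5 (chr1:205086142-205122015), the WD-repeat core subunit that contacts the catalytic domain directly, showed the smallest difference of the 8 genes. Its hairpins summed to 872, 1305 and 1302 CPM without and to 1324, 1306 and 1135 CPM with AZA. The groups overlapped and the ratio of their means was 1.08. The highest value was that of RBBP5.2403, at 23.7, 65.0 and 24.3 CPM without and at 70.4, 76.8 and 70.2 CPM with AZA (0.77 ± 0.95). The lowest was that of RBBP5.4231, at 313, 266 and 322 CPM without and at 227, 152 and 197 CPM with AZA (-0.81 ± 0.37). Both were free of overlap between the groups and pointed in opposite directions. The other 6 hairpins lay between -0.16 and 0.45. The gene mean of 0.065 became -0.17 without untreated replicate 1.

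CXXC1 encodes the CpG-binding subunit that brings SET1 complexes to unmethylated CpG islands. Its hairpins summed to 329, 524 and 455 CPM in the untreated and to 691, 721 and 489.6 CPM in the AZA libraries. The groups overlapped in a single library, and the gene mean of 0.38 was 0.10 to 0.52 when any single library was left out, the lowest without AZA replicate 2. No hairpin of CXXC1 was free of overlap between the groups.

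The 3 CXXC1 hairpins without a site in the annotated gene did not have the smallest differences. CXXC1.160 was at 59.6, 4.05 and 11.9 CPM in the untreated and at 25.9, 31.1 and 18.99 CPM in the AZA libraries. CXXC1.197 was at 113, 55.3 and 15.9 CPM without and at 233, 86.0 and 125 CPM with AZA, and was the CXXC1 hairpin with the highest fold change, 1.12 ± 0.81. CXXC1.396 was at 14.3, 18.7 and 48.6 CPM without and at 15.7, 126 and 34.6 CPM with AZA. The mean of these 3 was 0.65 (SD 0.68).

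Hairpins with a site in the annotated CXXC1 gene had a mean of 0.21 (SD 0.57, n = 5). CXXC1.1731 was at 55.6, 189.7 and 75.5 CPM without and at 74.5, 80.6 and 87.3 CPM with AZA, which gave the lowest value of the gene, -0.58. CXXC1.1782 was at 13.6, 64.3 and 87.0 CPM without and at 36.9, 142 and 47.4 CPM with AZA. CXXC1.2319 was at 41.7, 36.8 and 107 CPM without and at 61.8, 99.9 and 53.6 CPM with AZA. The groups of these 3 hairpins overlapped broadly. CXXC1.2346 was at 5.61, 116 and 50.7 CPM without and at 98.1, 35.3 and 110.2 CPM with AZA. CXXC1.2919, in the 3′ UTR, was at 26.3, 38.8 and 58.5 CPM without and at 145, 119 and 12.7 CPM with AZA. Its value of 1.00 was the highest among the 5, although AZA replicate 3 was below all untreated libraries. Means with and without the 3 hairpins differed by less than the spread of the hairpins.

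WDR82 (chr3:52254434-52288020) encodes the SET1 subunit that binds the tail of RNA polymerase II, and it is also a subunit of a phosphatase complex. It was the only one of the 8 genes with a negative mean. The summed level of its hairpins was 1335, 959 and 906 CPM in the untreated and 709, 470.2 and 548 CPM in the AZA libraries, and the ratio of the group means was 0.540. The gene was at the 54.7th percentile of the 912 genes without and at the 4.61st with AZA, and its mean log2 fold change of -0.88 was at the 0.439th percentile. When any single library was left out the mean was -1.24 to -0.66.

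Of the WDR82 hairpins, 7 of 8 had negative values, and 3 abundant ones carried the difference in counts. WDR82.3292 was at 346, 318 and 297 CPM without and at 145, 89.96 and 186 CPM with AZA (-1.35 ± 0.41, adjusted p = 0.678 by edgeR's quasi-likelihood test and 0.0221 by DESeq2). WDR82.2905 and WDR82.3272 were lower to a similar extent, with values of -1.31 and -1.47. In all 3, every AZA library was below every untreated library. By the numbers in their identifiers alone, the sites of WDR82.3272 and WDR82.3292 start 20 bases apart and would be adjacent, with up to 2 bases shared.

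The less abundant WDR82 hairpins were more erratic. WDR82.473 had the lowest value, -1.81 ± 1.61, from 17.2, 65.5 and 17.1 CPM without to 13.4, 18.0 and 0.841 CPM with AZA. WDR82.935 was at 26.0, 42.4 and 0 CPM without and at 43.6, 10.3 and 12.7 CPM with AZA, where the 0 in untreated replicate 3 allows up to 0.153 CPM. The only positive value, 0.53 ± 1.00, was that of WDR82.3208, at 92.6, 33.7 and 15.7 CPM without and at 99.2, 100.3 and 27.2 CPM with AZA. The groups of these 3 hairpins overlapped.

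HCFC1 (chrX:153947557-153971818), the scaffold shared with OGT, had the lowest summed hairpin level of the 8 genes in both groups. Its hairpins summed to 316, 417 and 387 CPM in the untreated and to 442, 627 and 266 CPM in the AZA libraries. This placed HCFC1 9th and 10th from the bottom of the 912 genes, and 6 of its 8 hairpins were below the 25th percentile of all hairpins in the untreated group. The groups overlapped. HCFC1.2635 had the highest value, 3.19 ± 2.18, with 2.20, 0 and 5.90 CPM without and 21.3, 50.4 and 10.98 CPM with AZA. It was the only hairpin of the gene without overlap between the groups, and it was scarce in both.

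The other HCFC1 hairpins pointed both ways. The lowest was HCFC1.2417, at 20.4, 108 and 119 CPM without and at 18.98, 50.8 and 39.8 CPM with AZA (-1.35 ± 0.99). HCFC1.1139 was at 12.6, 97.2 and 0 CPM without and at 18.4, 57.8 and 4.69 CPM with AZA. The remaining 5 lay between -0.29 and 0.92. The gene mean of 0.48 did not keep its sign. It was -0.017 without AZA replicate 2 and -0.27 over the hairpins with a mean level above 50 CPM, a cutoff chosen after the data had been seen.

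OGT (chrX:71533087-71575892) encodes the glycosyltransferase that cleaves HCFC1 and also binds TET proteins. Its hairpins summed to 1381, 1202 and 1141 CPM without and to 1639, 1924 and 1812 CPM with AZA. The groups did not overlap and the ratio of the means was 1.44. OGT.54 had the highest value, 2.44 ± 1.29, with 1.55, 29.6 and 7.99 CPM without and 58.5, 50.5 and 134 CPM with AZA. In addition to OGT.54, all AZA libraries were above all untreated ones for OGT.743, OGT.1145 and OGT.4478, with values of 0.81 to 2.23. The lowest was OGT.2585, at 373, 379 and 12.3 CPM without and at 92.0, 308 and 148 CPM with AZA (-0.64 ± 0.88). Its untreated replicate 3 stood 30.9-fold below replicate 2. OGT.4377, at 277 CPM in replicate 2 of both groups, varied least of the 64 hairpins between pairs. Its log2 differences were -0.30 to -0.19 after TMM normalization. On CPM, which is scaled to library totals, its ratios in pairs 1, 2 and 3 were 0.915, 1.00 and 0.910. The gene mean was 0.70 to 1.02 when any single library was left out.

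Because each culture was divided, the groups could also be compared within replicate numbers. For each gene the mean log2 CPM over its hairpins (TMM-normalized, prior count 2) was subtracted, AZA minus untreated. On this scale the median gene of the 912 was at 0.25, so values are to be read against it. WDR5 was at 1.22, 2.71 and 1.78 in pairs 1, 2 and 3, DPY30 at 0.98, 1.33 and 1.74, OGT at 0.90, 1.06 and 1.93, and ASH2L at 1.16, 0.34 and 0.44. These 4 genes were higher in 3 of 3 pairs, as were 29.4% of all genes. The WDR5 value in pair 2 drew on WDR5.2751 and WDR5.1559, with 0 and 2 counts in untreated replicate 2. Their log2 differences in that pair were 8.67 and 7.60. WDR82 was at -0.68, -1.16 and -0.26, lower in 3 of 3 pairs, as were 8.66% of all genes.

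The other 3 genes differed in sign between pairs. HCFC1 was at 1.80, 1.85 and -0.44, CXXC1 at 0.99, 0.75 and -0.12, and RBBP5 at 0.84, -0.30 and -0.11. HCFC1 and CXXC1 were thus lower with AZA in pair 3 only, and RBBP5 was higher in pair 1 only. The HCFC1 values include HCFC1.1975, which had 2 counts in untreated replicate 1 and 14 in AZA replicate 3. Its log2 differences were 8.09, 1.03 and -6.30, and without this hairpin the HCFC1 mean in pair 3 would be positive.

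**Figure D2:**
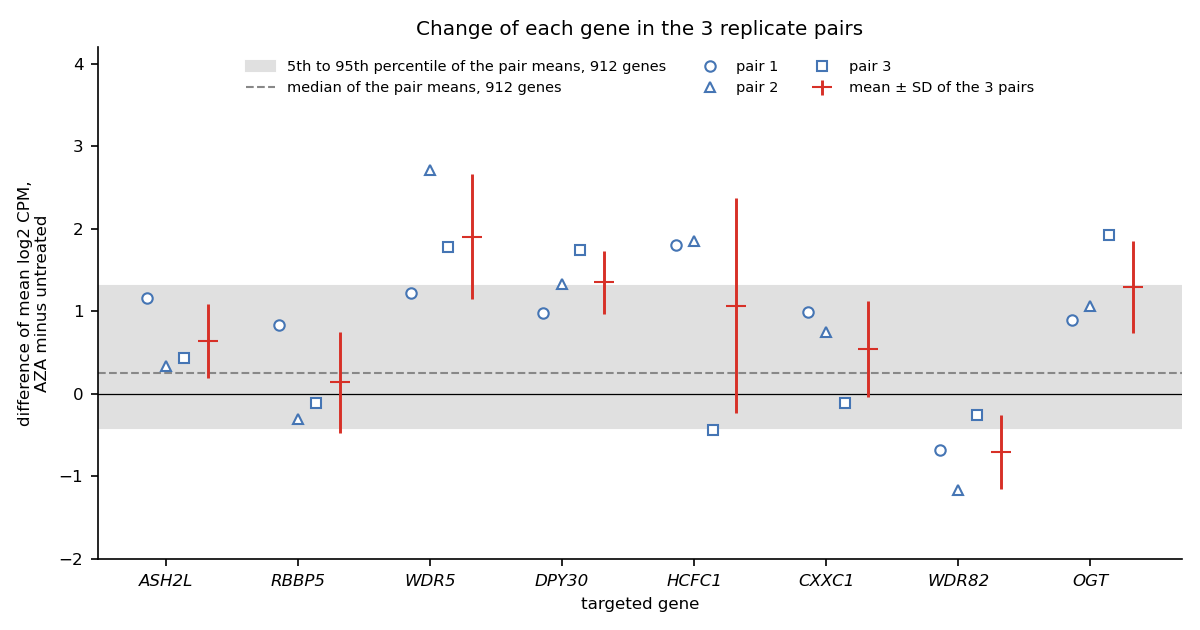
Difference of the mean log2 CPM of each gene's hairpins, AZA minus untreated, in replicate pairs 1 (circles), 2 (triangles) and 3 (squares), with the mean ± SD of the 3 pairs in red. The grey band holds the 5th to 95th percentile of the pair means of the 912 genes (-0.41 to 1.30) and the dashed line their median (0.25); WDR5 and DPY30 have means above the band and WDR82 a mean below it.

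Ordered by their level in the untreated libraries, the genes fell into a low and a high set. HCFC1 (373 ± 52.1 CPM, mean ± SD, n = 3), CXXC1 (436 ± 98.5) and WDR5 (441 ± 151) were among the 26 lowest of the 912 genes. DPY30 (794 ± 258), WDR82 (1066 ± 234), RBBP5 (1159.6 ± 249), OGT (1241 ± 124) and ASH2L (1252 ± 346) lay around or above the median gene, except DPY30 at the 28.7th percentile. Between WDR5 and DPY30 the libraries did not overlap, and between all other neighbours they did. In the AZA libraries the order was HCFC1 (445 ± 181), WDR82 (576 ± 122), CXXC1 (634 ± 126), WDR5 (697 ± 127), RBBP5 (1255 ± 104), DPY30 (1744 ± 202), OGT (1792 ± 144) and ASH2L (2158 ± 325). Here RBBP5 was clear of both its neighbours. ASH2L, OGT and DPY30 ended at the 98.1st, 95.4th and 94.5th percentile of all genes.

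Hairpins with overlapping or adjacent sites differed in how closely their levels followed each other. By their identifiers HCFC1.8326 and HCFC1.8327 start 1 base apart and can share 21 bases. HCFC1.8326 was at 11.6, 28 and 66.6 CPM and HCFC1.8327 at 60.8, 4.38 and 27.9 CPM in the untreated libraries. The ratio of the first to the second ran from 0.191 to 6.39 there and from 0.779 to 1.57 in the AZA libraries. DPY30.294 and DPY30.299, whose sites share 17 bases, had ratios from 0.670 to 8.21 over the 6 libraries. The abundant pair WDR82.3272 and WDR82.3292 kept a ratio of 0.475 to 0.829 in all 6.

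The partners of these genes in the same library were considered next, as lists assembled from known complex membership with earlier results at hand. The first list held 12 genes, namely MLL and SET1 methyltransferases and partners found in only some of their complexes. Of these, 4 had a positive mean log2 fold change, against 44.6% of all genes. The median over the genes was -0.058, against -0.052 over all 912 genes. With the replicate block 8 were positive, against 67.7% of all genes, and the medians were 0.14 and 0.21. In the fit without the block the highest were the methyltransferases SETD1B (0.69, SD 1.36 over its hairpins) and KMT2D (0.63, SD 1.17, targeted under its earlier name MLL2). SETD1A, the other SET1 enzyme and a partner of CXXC1 and WDR82, had the lowest mean (-0.65, SD 0.78), followed by MEN1 (-0.59, SD 1.18, 7 hairpins), the menin subunit of MLL complexes. None of the 95 hairpins of this list passed the edgeR quasi-likelihood test after adjustment, and at an unadjusted p under 0.05, 1 was higher and 1 was lower, where 1.9% and 3.72% of all hairpins tested were.

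The second list held 12 other partners of WDR5, HCFC1 and OGT, of which 7 had a positive mean (median 0.081), against 44.6% of all genes. With the replicate block 7 were again positive (median 0.25), against 67.7% of all genes. In the fit without the block KAT8, an acetyltransferase of histone H4 in WDR5-containing complexes, had the highest mean (1.39). This value, and with it the place of KAT8 among the 7, rested on a single hairpin. KAT8.422 had 0 counts in all 3 untreated libraries and 939, 1363 and 62 counts in the AZA libraries. It passed the count filter through the AZA libraries alone. Its mean AZA level was at least 214-fold above that of 3 counts per untreated library, but AZA replicate 3 was at 2.74 CPM only. Without KAT8.422 the mean of the other 5 KAT8 hairpins was -0.83. MCRS1, a subunit of the same complexes, followed with 0.95 (SD 1.01). The lowest were OGA (-0.63, SD 0.93, targeted as MGEA5), the enzyme that removes the modification OGT attaches, and TET3 (-0.58, SD 0.92), an OGT-bound dioxygenase of methylated DNA. OGA was at 0.011, -0.97 and 0.52 in the 3 pairs, whereas OGT was higher with AZA in all 3. None of the 93 hairpins of the list passed the adjusted test, and at an unadjusted p under 0.05, 3 were higher (1.9% of all hairpins tested) and 11 were lower (3.72%).

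**Figure D3:**
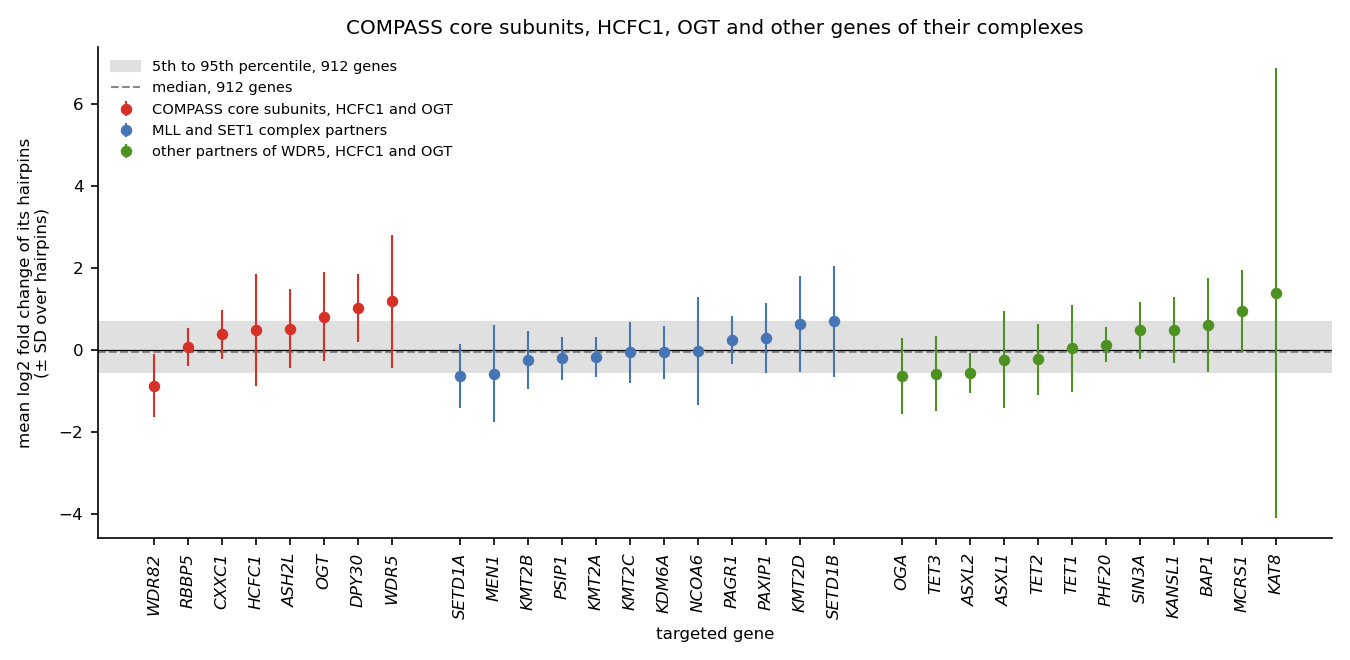
Mean log2 fold change (AZA over untreated) of the hairpins of the 8 genes (red), of 12 other subunits of MLL and SET1 complexes (blue) and of 12 other partners of WDR5, HCFC1 and OGT (green), with bars of 1 SD over hairpins; the grey band holds the 5th to 95th percentile of the 912 genes and the dashed line their median. Of the 8 genes, WDR5, DPY30 and OGT lie above the band and WDR82 below it. Of the other genes, SETD1B, MCRS1 and KAT8 lie above it, and SETD1A, MEN1, OGA, TET3 and ASXL2 below it. The long bar of KAT8 comes from the hairpin with 0 counts in all untreated libraries.

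Of all genes in the library, the mean log2 CPM of LMNB1 (Pearson r = 0.989), DDX4 (0.989) and INO80 (0.978) followed that of DPY30 most closely over the 6 libraries. LMNB1 encodes a lamin, DDX4 a germ-cell RNA helicase and INO80 a chromatin remodeller. These correlations include the difference between the groups, and 44 genes were above 0.9, so they serve as a description of the libraries only.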

How the data were processed

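The authors amplified hairpin guide strands from genomic DNA, sequenced them and deposited raw counts per hairpin, 1 file per sample. CASAVA 1.9 and GRCh37 are named in the submitters' processing notes. For the step from reads to hairpins, the program was not given in the sources used here. Hairpins that a file does not list were set to 0. Groups and replicate numbers come from the sample titles.

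Counts were TMM-normalized. A hairpin was kept if 3 or more libraries had it above 0.5 CPM, which left 7262 and removed 31, none of them against the 8 genes. Then AZA was compared with untreated by the quasi-likelihood test of edgeR 4.0.16 (limma 3.58.1, R 4.3.3), with Benjamini-Hochberg adjustment over all hairpins tested and a threshold of 0.05. The script was tested on simulated data. Genes are given as hairpin means, with no p. The SE is the fold change divided by the square root of its F statistic.

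The genes, lists and rule for naming were chosen with earlier results of these data known. The rule takes every hairpin of DPY30 and CXXC1, the highest, the lowest and each hairpin at 0 counts of the other genes, the 2 highest and 2 lowest genes of each list, and the 3 genes most correlated with DPY30. Further hairpins were named after their values were seen.

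Replicate numbers pair the samples, since each culture was divided. Across hairpins, each library's log2 CPM was centred on its group, and these residuals had correlations of 0.129, 0.114 and 0.140 for same-numbered libraries and of -0.098 to -0.025 for other combinations of an untreated and an AZA library. Guide sequences come from the library sheet, which was at hand in part, and were matched to GENCODE release 44 transcripts and GRCh38. Guides of the other genes are not printed here.

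Alternatives were DESeq2 1.42.0 size factors and Wald test, library totals, CPM above 10, the replicate block, no count filter, the edgeR exact test, differences of mean log2 CPM, leaving out each library, and other summaries over hairpins.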

Additional observations from a re-analysis of the deposited data

How the results depend on the processing

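The number of hairpins called, 0 of 64, was the same under every alternative run except DESeq2's Wald test, which called 4. The median log2 fold change of the 64 hairpins, 0.31, was positive throughout. It was 0.485 with library totals, 0.639 with the replicate block, 0.665 as a difference of mean log2 CPM, and 0.283 to 0.461 when each library was left out. The median of all hairpins moved as well, from -0.096 to 0.067 with library totals. It was 0.080 with the replicate block and 0.099 as a difference of mean log2 CPM. The cause of these shifts was not tested. The replicate block changed no call. The number of positive hairpins was 39 to 49 and of genes with a positive mean 6 or 7. WDR5, DPY30, OGT, ASH2L, CXXC1 and WDR82 kept the sign of their means under all alternatives run. RBBP5 lost it without untreated replicate 1 (-0.17), and HCFC1 without AZA replicate 2 (-0.017) and over hairpins with mean CPM above 50 (-0.27), a setting chosen after the data had been seen. Limiting CXXC1 to hairpins with a site in the annotated gene, also chosen afterwards, gave 0.21. A planned restriction to hairpins with at least 50 counts in every library was not run, because it removes the hairpins that were lost in a group. Among the 64 hairpins, levels differed up to 618-fold between untreated libraries where all 3 had counts. That value rests on 2 counts of WDR5.1559 in untreated replicate 2. Hairpins with 0 counts in an untreated library have no such ratio. Whether differences between the groups below such a spread could be detected was not tested.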
